A study of Saccharomyces cerevisiae with 30 samples.

Results

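The 5' domain of yeast 18S rRNA was taken as positions 1 to 470, counted from the 5' end of 18S, and was read out at its A and C. Of 225 A and C there, 204 (119 A and 85 C) had an effective depth of at least 1000 reads in all 30 libraries, out of 776 such nucleotides in the 1800 positions of 18S. The rule for the 204 members uses position, base and depth and no mutation rate. Of the 21 left out, 20 lay between positions 190 and 230 and the other was at position 2, and all 21 fell below this depth in the untreated library of WT pre-40S replicate 1. That gap covers most of the stretch between A188 and C233.

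The 5' domain forms much of the body of the small ribosomal subunit, and it is the first part of 18S to be transcribed and to fold. Its 5' end pairs with the U3 small nucleolar RNA in early precursors and later enters the central pseudoknot, and it also holds expansion segment ES3. The kinase Rio2 and the ribosomal protein S15 bind the head of the subunit, which is another domain. Dimethyl sulfate (DMS) methylates the pairing face of A and C where it is not protected by base pairing or by a bound protein, and reverse transcription in DMS-MaPseq records the methylated base as a mutation.

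Particles of Saccharomyces cerevisiae from mid-log cultures in YPD were compared. Pre-40S precursors came from S15_YRR cells, which carry a mutant S15 (n = 3), from Rio2_Δloop cells, whose Rio2 lacks a loop (n = 4), and from WT cells (n = 5), in each case through a TAP tag on Rio2, so the precursors are those that held Rio2. Mature 40S subunits were the fourth particle (n = 3), and how they were isolated is not given in the sources used here. The labels call the replicates biological, and each had 1 library after DMS (1% at 30 °C for 5 min) and 1 untreated library (NC), which gave 15 pairs. The changed residues of S15_YRR and the extent of the deleted loop are not given either.

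The untreated profiles over 18S fell into 4 sets of replicates that crossed the particles. Set 1 held S15_YRR replicates 1, 2 and 3, Rio2_Δloop replicates 3 and 4, mature 40S replicates 2 and 3 and WT replicates 4 and 5. Set 2 held Rio2_Δloop replicates 1 and 2 and WT replicates 2 and 3. WT replicate 1 and mature 40S replicate 1 each stood alone. WT replicate 1 went against its treatment: the mean mutation rate over the members was 0.535% in its DMS library and 0.974% in its untreated library, and 164 of 204 members had a lower rate after DMS. Median effective depth over the members ran from 4253.5 to 25207.5 reads per library. What sets these replicates apart was not tested. Results are given within sets and without WT replicate 1 where these change them.

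The stretches of 18S that carry the results are printed 5' to 3' as the deposited profiles give them. Capitals mark members whose DMS rate was called above the NC rate in the test of all pairs described next. A lower-case A or C was not called or lay below the depth limit, and its DMS rate could still exceed the NC rate. The stretches surround the 12 members with the highest DMS signal and the nucleotides called in a particle comparison. The first stretch was added after its values were seen, because it holds A22 and A40, which come up in the Rio2_Δloop comparison.

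positions 12 to 50: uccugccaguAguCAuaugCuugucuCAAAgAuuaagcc
positions 57 to 94: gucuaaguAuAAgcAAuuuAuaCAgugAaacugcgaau
positions 120 to 149: uuugauAguuCCuuuACuaCaugguAuaAc
positions 178 to 198: uAAAaucucgAcccuuuggaa
positions 223 to 249: ucaaugucuuCggacuCuuugaugauu
positions 342 to 369: ccaugguuucAacggguAacggggaauA
positions 445 to 470: aauccuaAuuCagggagguagugaCa

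Setting each DMS library against its untreated partner asked which nucleotides of the 5' domain DMS could reach. The DMS rate was called above the NC rate at 55 of 204 members (27.0%), 41 of 119 A and 14 of 85 C. The same test over all 776 A and C of 18S called 30.5%, with 41.4% of A and 16.4% of C, so the share of A called in the 5' domain (34.5%) was below that of 18S as a whole and the share of C (16.5%) was next to it. The difference between the 5' domain and the rest of 18S was not tested. At G and U, which DMS does not report on in this assay, 2.25% of 890 positions passed, 3 of 221 in the 5' domain. The test was edgeR's quasi-likelihood F test on mutation counts with the pair as a block and Benjamini-Hochberg adjustment over 1666 positions, at a threshold of 0.05. Without WT replicate 1 the count was 67 members (32.8%), against 39.3% of A and C over 18S and 5.51% of G and U.

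Of the 55 members with a DMS signal 21 had a positive difference in all 15 pairs, and each had one in at least 11. Tested on the pairs of 1 particle alone, 54 members passed in S15_YRR (28.4% of A and C over 18S), 60 in Rio2_Δloop (29.6%), 43 in mature 40S (18.9%) and 22 in WT pre-40S (10.7%). Leaving out replicate 1 raised the WT count to 36 members (20.2% over 18S). All 4 particles shared 22 members, among them A22, C25, A39 to A41 and A43 near the 5' end, A67, A80 and A84, C136 and C139, A188, C233 and C239, A352 and A359, and C455 and C469. These 22 are the whole list of WT pre-40S, so the WT fit with replicate 1 in it set their number. The share of A and C over 18S common to all 4 particles was not counted. A126 and A145 passed only in the fit of all 15 pairs. The particles have different numbers of pairs, so these counts do not rank them.

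Of the 55 members with a signal 44 were within 5 positions of another, and joining such neighbours gave 12 runs, 6 of them with 3 or more members. The other 11 stood alone, among them A188, C233, C239, A352, A359 and C469. How close members would lie by chance was not tested. The longest ran from A65 to A84 with 9 members and a mean difference of 0.727 percentage points, followed by A126 to C139 with 6 members and 1.2 percentage points and C38 to A43 with 5 members and 0.304 percentage points. In windows of 50 positions the signal covered 9 of 22 members in 1 to 50, 10 of 26 in 51 to 100 and 9 of 21 in 101 to 150. It was sparse in 251 to 300 (3 of 22), 301 to 350 (3 of 21) and 401 to 450 (3 of 33), and denser again in 351 to 400 (8 of 23). Between these the windows held 5 of 20 members in 151 to 200 and 2 of 7 in 201 to 250, and the last one, 451 to 470, had 3 of 9.

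**Figure D1:**
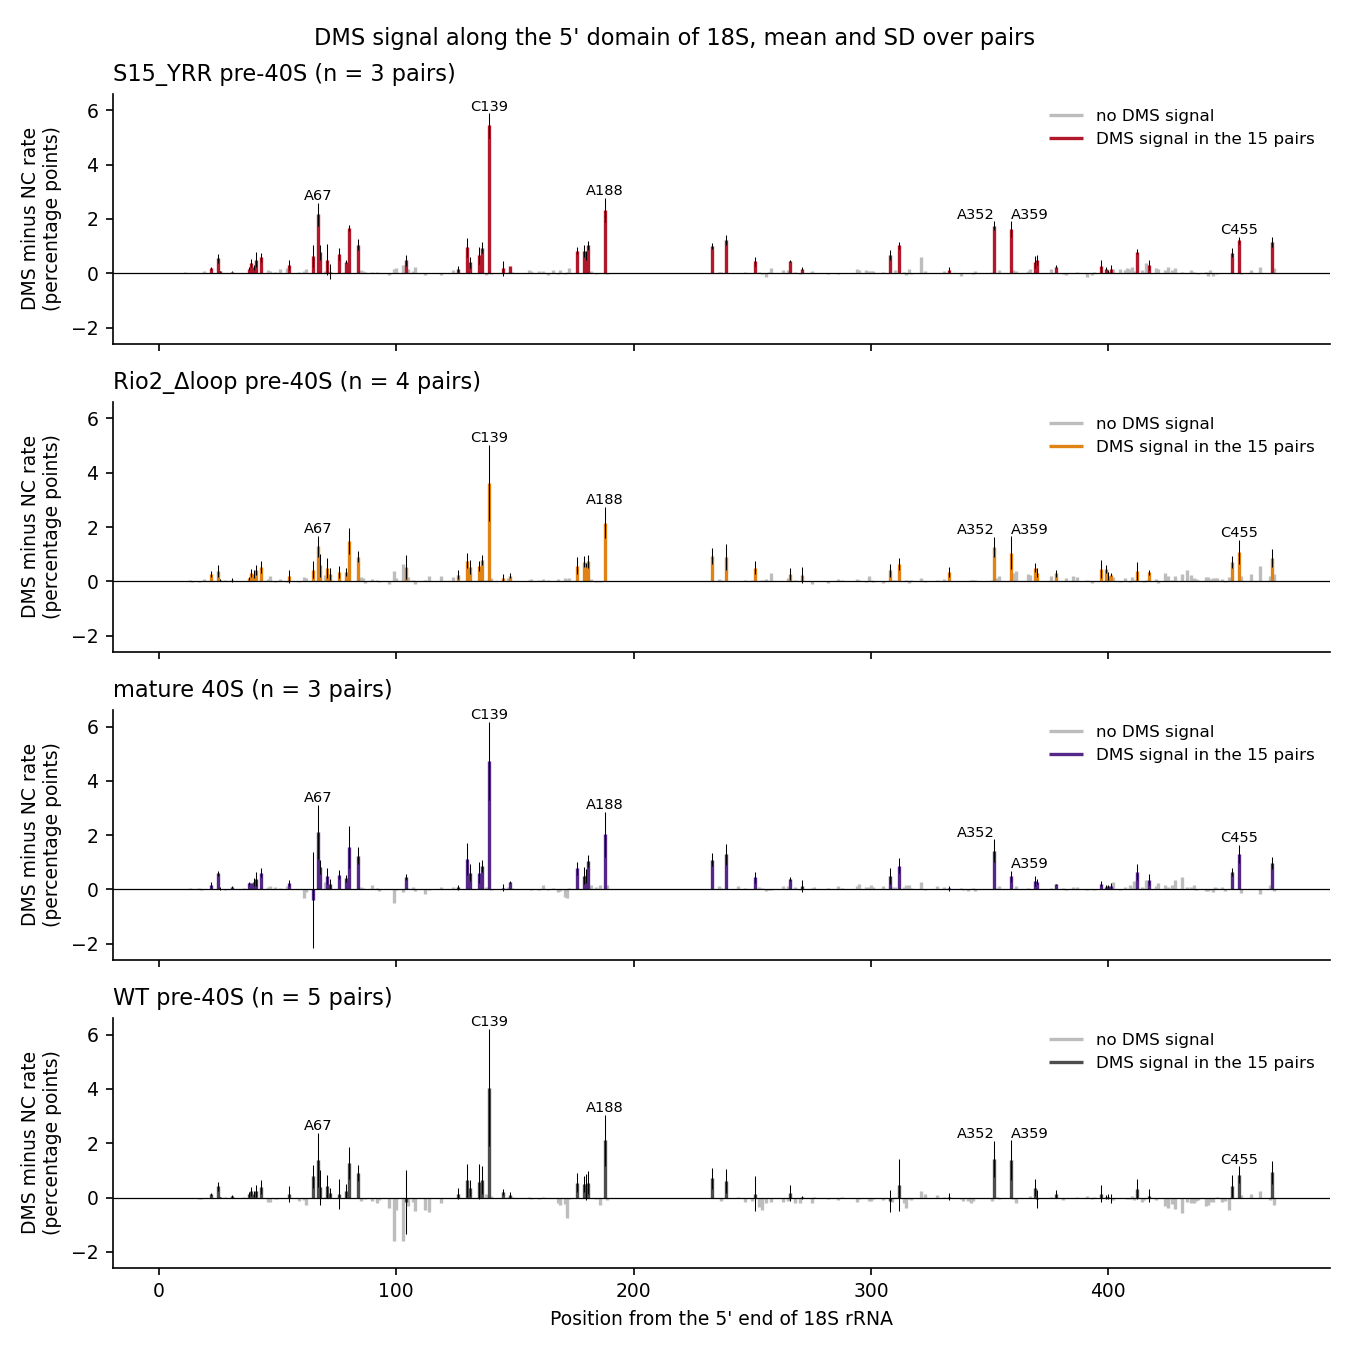
The mean DMS minus NC rate in percentage points (y axis) is drawn for each member along positions 1 to 470 of 18S (x axis), with 1 panel per particle, colour for the 55 members with a DMS signal, grey for the others and thin lines for the SD over pairs. C139 is the tallest bar in each of the 4 panels, A359 is visibly short in mature 40S, and WT pre-40S shows negative grey bars near position 100, where its replicate 1 was lowest.

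By the base on the 5' side, a signal was found at 14 of 35 A after A, 9 of 27 after C, 6 of 24 after G and 12 of 33 after U. For C the counts were 4 of 18 after A, 1 of 16 after C, 3 of 22 after G and 6 of 29 after U. By the base on the 3' side they were 14 of 36, 4 of 18, 9 of 25 and 14 of 40 for A before A, C, G and U, and 6 of 27, 2 of 17, 1 of 15 and 5 of 26 for C in the same order. These differences were not tested, and neighbouring members share reads and structure. Over 18S 41.4% of A and 16.4% of C were called, but the shares there by neighbouring base were not counted. So these counts do not show a trait of the 5' domain.

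Most members of the 5' domain gave little or no difference. The mean over 15 pairs lay within 0.2 percentage points of 0 at 158 of 204 members and reached 1 percentage point at 8, with a median of 0.0385 percentage points, against 0.0515 over the 572 A and C in the rest of 18S. The highest value was 4.35 percentage points at C139 and the lowest was -0.50 at C99, whose untreated rate averaged 3.62%. At C99 the pair of WT replicate 1 gave -5.03 percentage points, and WT pairs 2 to 5 gave -1.12, -1.07, -0.19 and -0.58. Without WT replicate 1 the mean at C99 over 14 pairs was -0.17. Its mean was 0.152 in S15_YRR and 0.378 in Rio2_Δloop, where replicate 2 had 1.78, and -0.49 in mature 40S. C99 lies next to Am100, a methylated nucleotide described at the end.

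Averaged over the 204 members, the difference was 0.262, 0.263 and 0.216 percentage points in the S15_YRR pairs, 0.216, 0.205, 0.253 and 0.240 in the Rio2_Δloop pairs and 0.150, 0.264 and 0.223 in the mature 40S pairs, against -0.44, 0.0515, 0.0754, 0.303 and 0.172 in the WT pre-40S pairs 1 to 5. The means were 0.247 ± 0.0269 (SD) for the 3 S15_YRR pairs, 0.228 ± 0.0220 for the 4 Rio2_Δloop pairs, 0.212 ± 0.0579 for the 3 mature 40S pairs and 0.0326 ± 0.282 for the 5 WT pre-40S pairs. Replicate 1 was the lowest of the WT pairs, and without it the WT mean was 0.150. Within set 1 the mean was 0.247 for S15_YRR, 0.246 for Rio2_Δloop, 0.243 for mature 40S and 0.238 for WT, while within set 2 they were 0.210 in Rio2_Δloop and 0.0634 in WT. Over the rest of 18S the set 2 means were also higher in Rio2_Δloop (0.254) than in WT (0.172). None of these means was adjusted for the overall level of each library. In each of the 15 pairs the members averaged below the rest of 18S, by 0.0235 to 0.177 percentage points. The medians did not share this order throughout: the members' median was below that of the rest in 11 pairs and above it in 4.

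**Figure D2:**
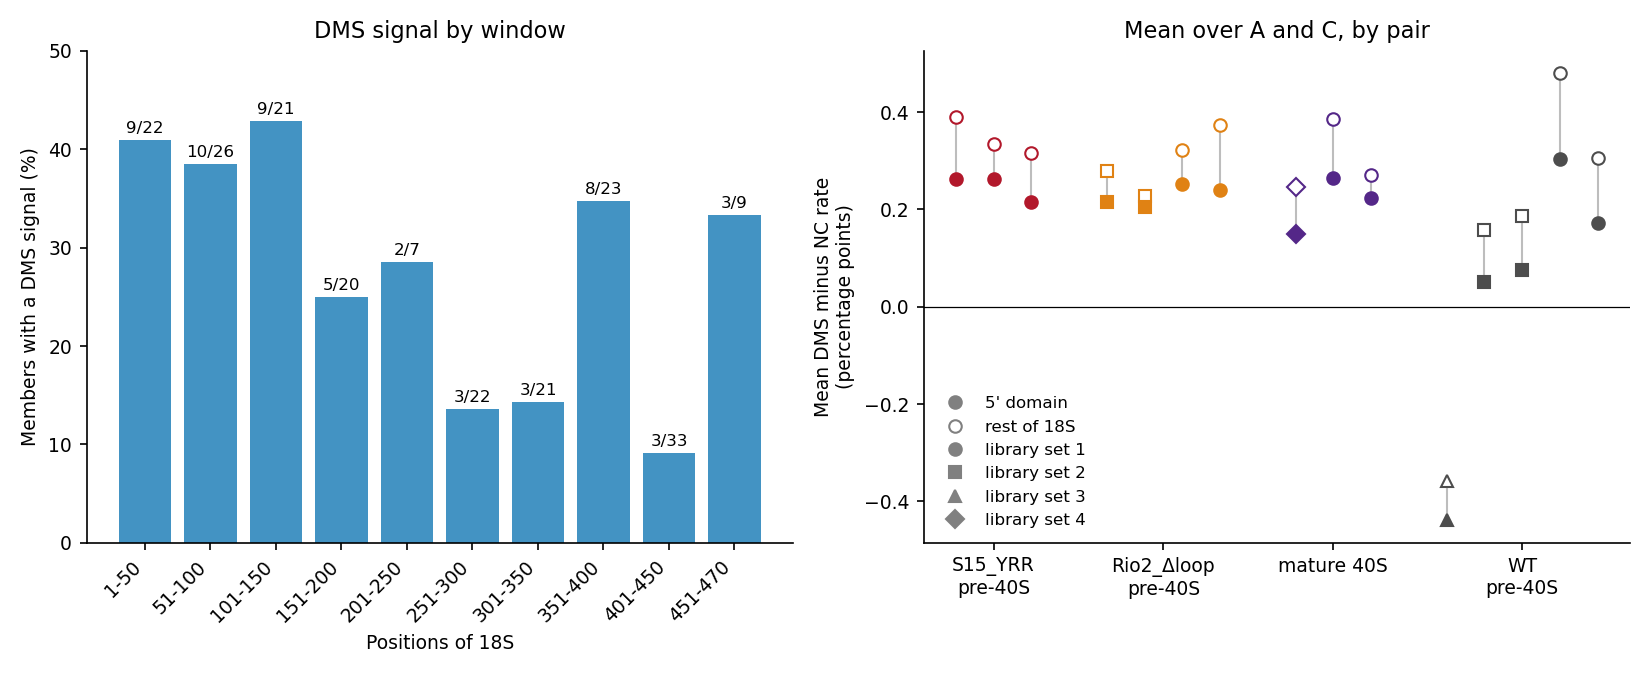
The left panel gives the percentage of members with a DMS signal (y axis) in windows of 50 positions (x axis), with the counts above the bars. The right panel gives the mean DMS minus NC rate in percentage points for each pair over the 5' domain (filled) and over the rest of 18S (open), by particle and with marker shapes for the library sets. Each filled point sits below its open partner, and both points of WT replicate 1 are below 0.

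C139 gave the strongest signal of the 5' domain. It lies in the stretch of positions 120 to 149, where C130, C131, A135 and C136 also had a signal. The difference was 5.44 ± 0.451 percentage points (SD) over the 3 S15_YRR pairs, 3.62 ± 1.41 over the 4 Rio2_Δloop pairs, 4.74 ± 1.43 over the 3 mature 40S pairs and 4.04 ± 2.16 over the 5 WT pre-40S pairs, and the untreated rate averaged 0.586%. Over the 15 pairs the log2 change of DMS over NC was 3.09 (SE 0.131; edgeR adjusted p = 4.34e-18). It was positive in every pair, from 2.16 percentage points in WT replicate 1 to 7.40 in WT replicate 4.

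A188 came next, with 2.33 ± 0.437 percentage points (SD) for S15_YRR, 2.16 ± 0.583 for Rio2_Δloop, 2.04 ± 0.827 for mature 40S and 2.10 ± 0.954 for WT pre-40S, over the same pairs. A67 and A80 followed with means over 15 pairs of 1.66 and 1.47 percentage points, A352 with 1.45, A359 with 1.16, C455 with 1.08 and A84 with 1.00. C469 (0.961), C239 (0.949), C233 (0.910) and C130 (0.828) complete the 12. Their untreated rates were not small: the mean NC rate was 1.14% at A67, where DMS added 1.29 on the log2 scale, and 0.389% to 0.635% at A84, A80, C239, A352, C455, C469, C233, A359 and C130. A22, A40, A41 and A43 had smaller mean differences than these 12, of 0.180, 0.211, 0.373 and 0.509 percentage points, over untreated rates of 0.0344% to 0.0456%. Their log2 changes of DMS over NC were 2.31, 2.82, 3.26 and 3.63, so at these members a small difference was a large ratio to a low untreated rate.

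**Figure D3:**
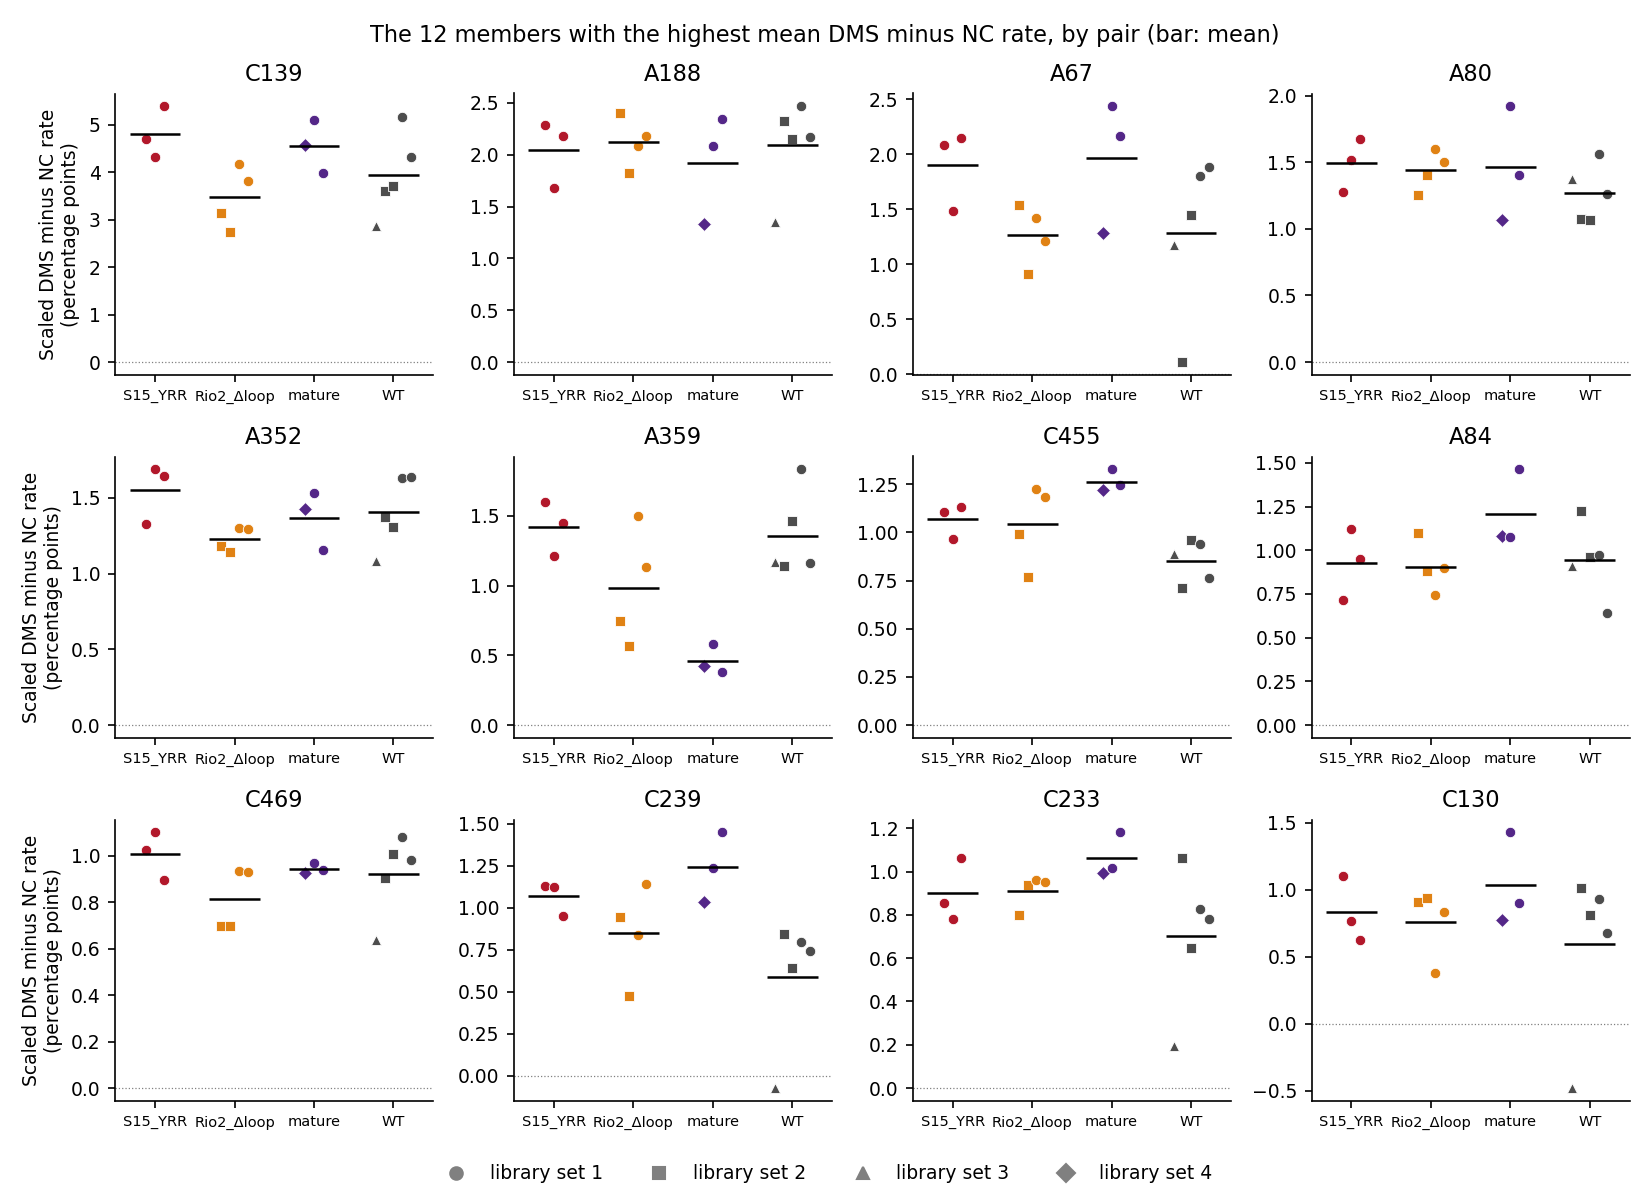
The 12 members with the highest mean DMS minus NC rate are shown 1 per panel, with the difference divided by the library scale in percentage points (y axis) for each pair, the particles on the x axis, marker shapes for the library sets and bars for the means. In 11 of the 12 panels the mature 40S values overlap those of WT pre-40S or lie above them, and in the panel of A359 they lie below.

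Differences between particles were tested on the DMS libraries with edgeR's quasi-likelihood F test, in 1 fit of all 15. Effective depth was multiplied by a scale for each library, found as the median ratio of its DMS mutation rates to the average profile, which ran from 0.733 to 1.43. A nucleotide was tested only where its DMS rate averaged 2 or more times its NC rate, which held for 106 in 18S. Of the 204 members 28 (16 A and 12 C) passed that filter and 176 did not, and the 28 were all among the 55 with a DMS signal. A log2 change is the first particle over the second in scaled DMS mutation rate, with the untreated rate still in it. Scaled differences below are the DMS minus NC rate divided by the library scale, in percentage points. The 3 comparisons with WT pre-40S share its libraries.

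The comparison of mature 40S with WT pre-40S asked which nucleotides change between the Rio2-bound precursor and the finished subunit. Of the 28 tested members 1 passed the threshold, A359, which was lower in mature 40S. Over 18S 21.7% of the 106 tested nucleotides passed, and 15.1% passed and were lower, so the 5' domain held few of the calls. Of its other tested members 4 had an unadjusted p under 0.05 and did not pass after adjustment.

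At A359 the scaled difference was 0.425, 0.577 and 0.377 percentage points in the mature 40S pairs, against 1.17, 1.14, 1.46, 1.83 and 1.16 in the WT pre-40S pairs. The 3 mature values were all below the 5 WT values. Mature 40S averaged 0.460 ± 0.104 (SD) over 3 pairs and WT pre-40S 1.35 ± 0.301 over 5, a log2 change of -1.03 with a standard error of 0.174 (edgeR, adjusted p = 4.87e-05). The untreated rate at A359 ran from 0.380% to 0.684% in mature 40S and from 0.376% to 1.15% in WT, so the untreated libraries overlapped. Within set 1 the scaled means were 0.477 in mature 40S and 1.5 in WT, 2 pairs each, with a log2 change of -0.89 (adjusted p = 0.00178). Without WT replicate 1 it was -0.92 (adjusted p = 0.000135). A fit that took the untreated libraries in as an interaction gave -1.36 (adjusted p = 0.000403). Under the alternatives that tested A359 the change kept its sign in 21 of 21 and passed in 20. The exception was limma on unscaled subtracted rates of all 776 nucleotides (adjusted p = 0.424), and the stricter filter of 3 times the untreated rate left A359 untested and called A352 instead.

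The DMS rates themselves, before scaling and subtraction, overlapped at A359. The mature 40S libraries had 0.727% (95% Wilson interval 0.592% to 0.893%), 1.39% (1.2% to 1.61%) and 1.07% (0.870% to 1.32%). The WT pre-40S libraries ran from 1.33% (1.13% to 1.56%) in replicate 2 to 3.16% (2.84% to 3.51%) in replicate 4, so mature replicate 2 lay above WT replicate 2. These intervals cover counting error only, since reads are not independent molecules.

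A359 is the first base of the hexamer AACGGG, and so is A352, upstream in the same stretch. The hexamer occurs 3 times in 18S, starting at A352, A359 and A684, and A684 had a mean difference of 0.0144 percentage points. A352 had scaled values of 1.42, 1.53 and 1.15 in mature 40S and of 1.08, 1.37, 1.31, 1.63 and 1.64 in WT pre-40S, which overlap. Its log2 change was -0.31, with a standard error of 0.124 (edgeR, adjusted p = 0.0771), and under the filter of 3 times the untreated rate it passed at -0.40 (adjusted p = 0.0185). Its scaled means were 1.37 ± 0.195 (SD) over 3 mature 40S pairs and 1.41 ± 0.234 over 5 WT pairs.

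The remaining members with an unadjusted p under 0.05 in this comparison had positive changes: C455 with 0.33 (SE 0.140; edgeR adjusted p = 0.103), C239 with 0.33 (SE 0.155; adjusted p = 0.138) and A43 with 0.48 (SE 0.218; adjusted p = 0.131). Their scaled values in mature 40S did not overlap those in WT pre-40S, but their unscaled differences and their DMS rates did. A181 also separated after scaling, with a log2 change of 0.30 (edgeR adjusted p = 0.224). How many nucleotides of 18S separate in this way after scaling was not counted. For C455 the scaled values were 1.22, 1.33 and 1.24 in mature 40S, against 0.886, 0.71, 0.961, 0.941 and 0.761 in WT. In all, 21 of the 28 tested members had a positive log2 change and 7 a negative one, with a median of 0.12 against 0.03 over the 106 nucleotides of 18S. C139 stood at 0.25 (SE 0.155; adjusted p = 0.264), but at -0.99 in the interaction fit (adjusted p = 0.0341). A188 stood at -0.25 (SE 0.163; adjusted p = 0.287).

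**Figure D4:**
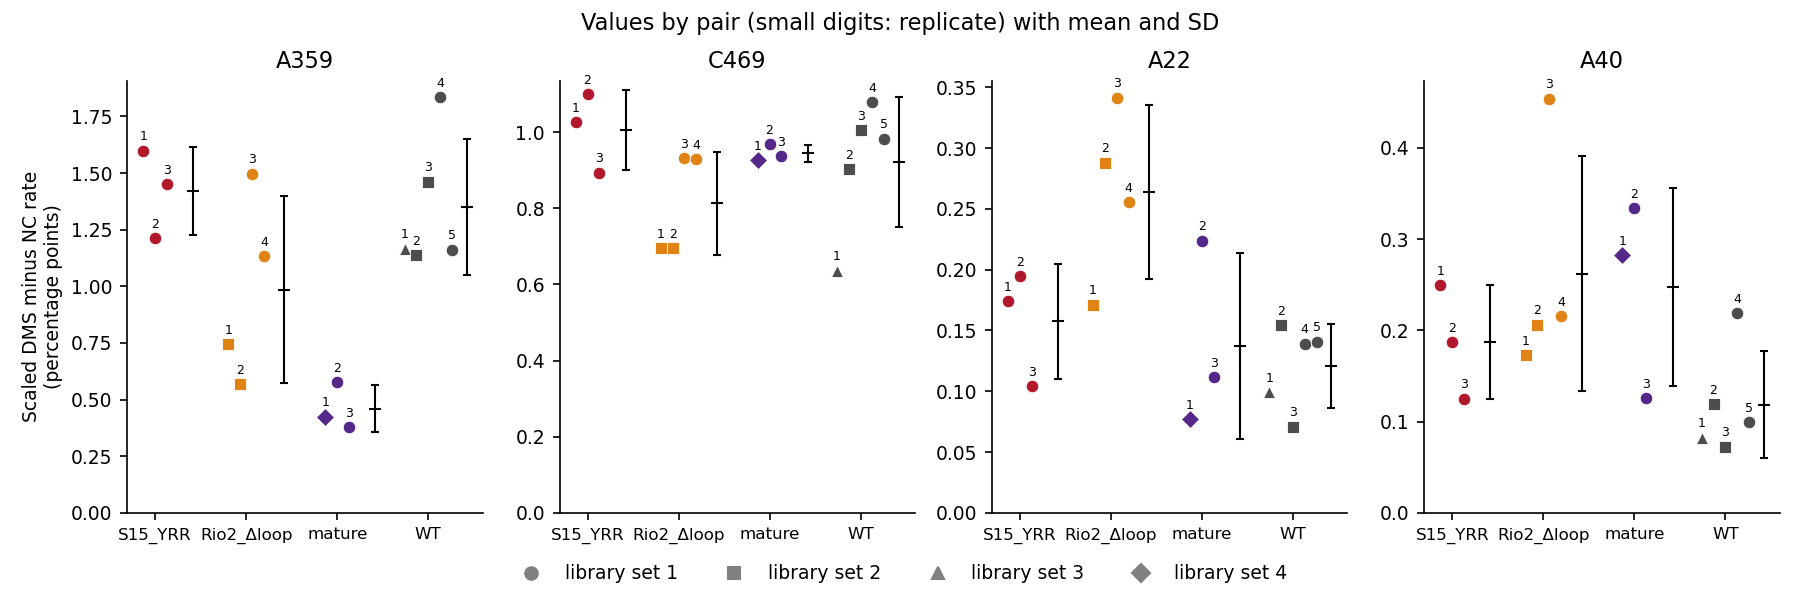
The scaled DMS minus NC rate in percentage points (y axis) of A359, C469, A22 and A40 is shown for each pair by particle (x axis), with small digits for the replicate, marker shapes for the library sets, and a bar for the mean and SD. At A359 the 3 mature 40S values lie below all S15_YRR and WT pre-40S values, and Rio2_Δloop replicate 2 of set 2, at 0.569, lies among them.

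Rio2_Δloop precursors were set against WT pre-40S to ask what the loop of Rio2 changes in the precursor. Of the 28 tested members 1 passed, C469 at the 3' edge of the domain, which was lower in Rio2_Δloop. Over 18S 15.1% of tested nucleotides passed, and 8.49% passed and were lower. The scaled difference at C469 was 0.695, 0.696, 0.932 and 0.928 percentage points in the Rio2_Δloop pairs, against 0.636, 0.903, 1.01, 1.08 and 0.983 in the WT pre-40S pairs, with overlap between them. Rio2_Δloop averaged 0.813 ± 0.135 (SD) over 4 pairs and WT 0.921 ± 0.171 over 5, a difference smaller than the SD of either. The log2 change of the DMS rate was -0.33 (SE 0.11; edgeR, adjusted p = 0.0453). The untreated rate at C469, which that change still contains, was 0.992% in WT replicate 1 and 0.373% to 0.713% in all Rio2_Δloop and other WT libraries. The call was lost in 20 of 22 alternatives, among them the fit without WT replicate 1 (adjusted p = 0.0633), where A22 alone passed, set 1 alone (-0.22; adjusted p = 0.347) and the log2 of subtracted reactivity in limma (-0.05; adjusted p = 0.839).

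A359 was the next by p. Its scaled difference was 0.744, 0.569, 1.5 and 1.13 percentage points in the Rio2_Δloop pairs, against 1.17, 1.14, 1.46, 1.83 and 1.16 in the WT pre-40S pairs. Rio2_Δloop averaged 0.985 ± 0.414 (SD) over 4 pairs and WT 1.35 ± 0.301 over 5, with a log2 change of -0.45 and a standard error of 0.154 (edgeR, adjusted p = 0.0507). The set 2 values, 0.656 in Rio2_Δloop and 1.30 in WT on average, lay further apart than the set 1 values, 1.31 in Rio2_Δloop and 1.5 in WT. Within set 1 the log2 change was -0.15 (adjusted p = 0.615), and over sets 1 and 2, with a term for the set, it was -0.34 (adjusted p = 0.0484). The change was negative in 22 of 22 alternatives and past the threshold in 6.

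Near the 5' end A22 and A40 stood higher in Rio2_Δloop on average, and passed the threshold in some of the alternatives but not in the fit of all pairs. The scaled difference at A22 was 0.171, 0.288, 0.341 and 0.256 percentage points in Rio2_Δloop, against 0.0991, 0.154, 0.0709, 0.139 and 0.141 in WT pre-40S. All 4 Rio2_Δloop values lay above the 5 WT values, although the unscaled differences and the DMS rates at A22 overlapped. The number of 18S nucleotides that separate in this way after scaling was not counted. At A22 the log2 change was 0.74, with a standard error of 0.281 (edgeR, adjusted p = 0.0884). Over sets 1 and 2, with a term for the set, it was 0.95 (adjusted p = 0.00311), and without WT replicate 1 it was 0.93 (adjusted p = 0.0109). A40 had 0.173, 0.206, 0.454 and 0.215 in Rio2_Δloop, against 0.0825, 0.119, 0.0726, 0.219 and 0.0991 in WT, and its log2 change was 0.78, with a standard error of 0.324 (adjusted p = 0.133). The scaled values at A40 overlapped: WT replicate 4, at 0.219, lay above all Rio2_Δloop values except replicate 3, at 0.454. With the term for the set A40 passed at 0.87 (adjusted p = 0.0484). The only other alternative in which A40 passed left out WT replicate 4. The levels at A22 and A40 are low, near 0.2 percentage points. Of the 28 tested members 13 had a positive and 15 a negative log2 change, with a median of -0.02 against 0.00 over 18S.

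S15_YRR precursors were set against WT pre-40S to ask what the mutant S15 changes. Of the 28 tested members 0 passed in edgeR and 0 in DESeq2, while 0.943% of tested nucleotides passed over 18S, and the count stayed at 0 without WT replicate 1. In edgeR 1 had an unadjusted p under 0.05 and in DESeq2 0. It was A41, whose log2 change of 0.60 had a standard error of 0.282 (edgeR, adjusted p = 0.480). Its scaled values averaged 0.435 ± 0.197 (SD) over 3 S15_YRR pairs and 0.224 ± 0.129 over 5 WT pairs. C139 had 4.71, 4.32 and 5.39 percentage points in S15_YRR, against 2.87, 3.61, 3.70, 5.17 and 4.33 in WT, and its log2 change of 0.31 (SE 0.156; adjusted p = 0.480) was within the spread of the pairs. A359 had 1.6, 1.21 and 1.45 in S15_YRR, which lay among the WT values, and its log2 change was -0.05, with a standard error of 0.162 (adjusted p = 0.939). After scaling, C239 and C455 were higher in all 3 S15_YRR pairs than in any WT pair, while their unscaled differences and DMS rates overlapped. Their log2 changes of 0.32 (adjusted p = 0.480) and 0.13 (adjusted p = 0.769) did not pass. The number of 18S nucleotides that separate in this way was not counted. Over the 28 members the log2 changes ran from -0.21 at A84 to 0.60 at A41, with standard errors from 0.118 to 0.361. The errors limit which changes could be detected, and the count of 0 does not show that the particles are alike. The whole of S15_YRR lay in set 1, and the WT values within that set, 4.75 at C139 and 1.5 at A359 on average, were close to the S15_YRR means of 4.81 and 1.42. At the other sites named here S15_YRR stayed higher within set 1: 1.07 against 0.768 at C239, 1.07 against 0.851 at C455 and 0.435 against 0.314 at A41. The fit of set 1 alone called 0 of the 28 members and 2 of 106 nucleotides over 18S.

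The mutants were also set against each other directly. Of the 28 members 0 passed for S15_YRR against Rio2_Δloop pre-40S in edgeR and 0 in DESeq2, 3 had an unadjusted p under 0.05 in edgeR, and 6.6% passed over 18S. At C139 the log2 change was 0.46, with a standard error of 0.164 (edgeR, adjusted p = 0.0872), and the scaled values were 4.71, 4.32 and 5.39 percentage points in S15_YRR, against 3.15, 2.74, 4.17 and 3.81 in Rio2_Δloop, without overlap. The unscaled differences and the DMS rates at C139 did overlap. A352 also separated after scaling, with a log2 change of 0.07 (edgeR, adjusted p = 0.913). The number of 18S nucleotides that do so was not counted. At A22 the log2 change was -0.84, with a standard error of 0.327 (adjusted p = 0.131), and over sets 1 and 2, with a term for the set, it passed at -0.91 (adjusted p = 0.0404). Its scaled values averaged 0.158 ± 0.0475 (SD) over 3 S15_YRR pairs and 0.264 ± 0.0714 over 4 Rio2_Δloop pairs. At A359 the log2 change was 0.40, with a standard error of 0.174 (adjusted p = 0.185). Within set 1 the scaled means of C139 were 4.81 in S15_YRR and 3.99 in Rio2_Δloop.

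**Figure D5:**
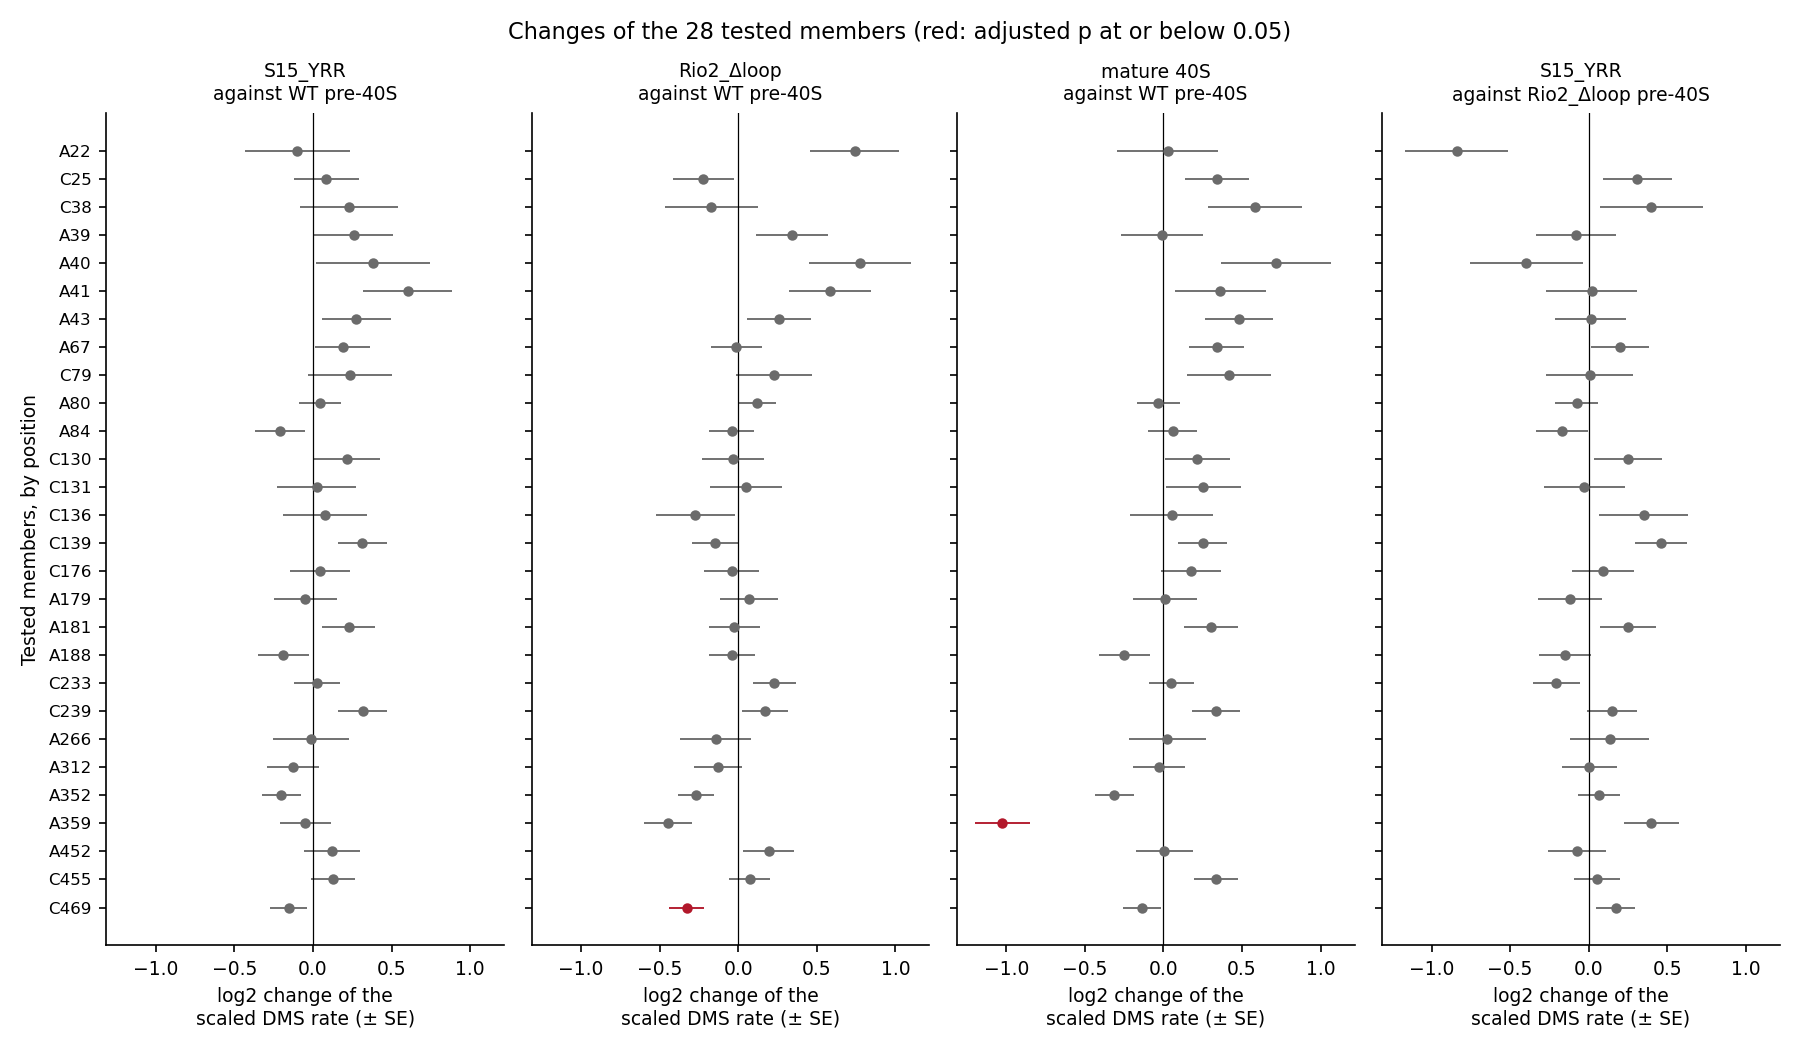
The log2 change of the scaled DMS mutation rate (x axis, with SE) is drawn for the 28 tested members in the order of their positions (y axis), with 1 panel for each of the 4 comparisons and red for an adjusted p at or below 0.05. The red points are C469 in Rio2_Δloop against WT pre-40S and A359 in mature 40S against WT pre-40S, and most others lie between -0.5 and 0.5.

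The 5' domain holds 5 nucleotides known to carry a 2'-O-methyl group in mature yeast 18S, Am28, Am100, Cm414, Am420 and Am436. That group sits on the ribose and leaves the base-pairing face as it is. DMS did not raise the mutation rate past the threshold at any of the 5, with edgeR adjusted p from 0.633 to 0.906. At A100 the difference was 0.185 ± 0.0782 percentage points (SD) over 3 S15_YRR pairs, 0.121 ± 0.266 over 4 Rio2_Δloop pairs, -0.0078 ± 0.121 over 3 mature 40S pairs and -0.46 ± 0.670 over 5 WT pre-40S pairs. Untreated rates were 0.953% ± 0.0829 (SD) for S15_YRR, 0.999% ± 0.159 for Rio2_Δloop and 0.748% ± 0.199 for mature 40S, against 1.46% ± 0.756 in WT, over the same pairs. Without replicate 1 the WT difference at A100 was -0.17 ± 0.251 percentage points and the WT untreated rate 1.13% ± 0.152 (SD, 4 pairs). At A28 they were low, from 0.139% in Rio2_Δloop to 0.202% in S15_YRR on average. Differences between particles at these sites were not tested in the main fit, since the sites did not pass the filter on DMS signal. The fit with no signal filter and limma on percentage points tested all 204 members, and called none of the 5 sites in any comparison.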

How the data were processed

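The members and the lists were chosen with earlier results of these data known. The authors deposited, per the file headers, a profile of each library with mutation counts and effective depth as counts per position, and a mutation rate as a fraction. The fraction equalled mutations over effective depth to within 5e-07. Aligner, counting software, filters and genome build are not given in the sources used here, so positions are those of the deposited rRNA sequence. The deposited normalized accessibility table was not used here.

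Rates, differences, runs and windows were computed in Python 3.11.15. Tests used edgeR 4.0.16 in R 4.3.3, with limma 3.58.1 and DESeq2 1.42.0 as alternatives. Only the edgeR particle fit and the edgeR fit of DMS against NC were also run on simulated counts. These counts held no library sets and no WT replicate with higher untreated rates at most members, so they cannot show how the fits handle either. P-values were adjusted over all tested nucleotides of 18S. Library sets came from average linkage of untreated log2 rates (plus 0.0005), cut at 4. Within set 1 untreated libraries correlated across positions at 0.870 to 0.947, between sets at 0.286 to 0.634. Named nucleotides are the 12 highest by mean difference, those called in a particle comparison, the 4 with the smallest p in each and the known methylated sites. Those named in runs, shared calls and neighbour counts were chosen after their values were seen. Replicate numbers did not pair the particles: deviations of same-numbered replicates correlated from -0.33 to 0.311 (median 0.0243, 19 pairs).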

Additional observations from a re-analysis of the deposited data

Results flagged for a closer look

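Of 38 groups of 4 or 5 pairs checked at the named nucleotides for a value far from the others, 5 had one, and chance gives about 1 in 20. All are scaled DMS minus NC rates in percentage points. WT pre-40S replicate 1, the pair whose untreated library had the higher mean rate, gave 3 of them. It had -0.478 at C130, with the other WT pairs at 0.676 to 1.01, and -0.0737 at C239, with the others at 0.640 to 0.847. At A188 it had 1.35, with the others at 2.15 to 2.47. The other two were in Rio2_Δloop pre-40S. Replicate 3 had 0.454 at A40, with the others at 0.173 to 0.215, and replicate 1 had 0.799 at C233, with the others at 0.937 to 0.960.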

How the results depend on the processing

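The WT pre-40S pairs alone called 22 members above the untreated rate, or 36 with replicate 1 left out, against 55 in all pairs. Leaving out 1 pair in turn gave 49 to 67, and 214 to 305 of 776 A and C over 18S. It gave 0 to 0 calls for S15_YRR, 0 to 2 for Rio2_Δloop and 1 to 2 for mature 40S against WT pre-40S, and 0 to 2 for S15_YRR against Rio2_Δloop. Over 18S the calls ran from 1 to 2, 11 to 17, 19 to 25 and 2 to 9 of 106, in the same order. The 1 call for Rio2_Δloop became 0 without a library scale, with a percentile scale, with no signal filter or one of 3 times, with the interaction, DESeq2, limma on percentage points, set 1 alone or only the groups compared. Over 18S the calls in these settings ran from 0 of 776 (limma on percentage points) to 15 of 106 (DESeq2). The 1 call became 2 of 18 members at a depth of 2000 (A22 and A359), with 17 of 85 nucleotides called over 18S. It became 3 of 28 with a term for the set (A22, A40 and A359), with 25 of 106 called over 18S. The 1 call for mature 40S was A352 in place of A359, which was not tested, under the filter of 3 times, and became 2 with no signal filter (adding A76), with the interaction (adding C139, lower) and in set 1, or sets 1 and 2 without a set term (adding C239), and 0 in limma on percentage points. In the same order these settings called 13 of 57, 37 of 776, 21, 22 and 25 of 106, and 6 of 776 over 18S. For S15_YRR against Rio2_Δloop, 0 became 1 with a set term (A22) or only these groups, and 2 in sets 1 and 2 without it (A22 and C139). The calls over 18S were then 10, 12 and 16 of 106. With the replicate block, mature 40S had 4 calls (A43, C139, A359 and C455), Rio2_Δloop 1 (A359, log2 -0.51), S15_YRR against WT 0 and against Rio2_Δloop 1 (C139). The calls over 18S were 28, 14, 2 and 8 of 106, in the same order. The replicate numbers are shared by label only.

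Changes of direction were among values that had not passed in the fit reported. C139 in mature 40S against WT passed in opposite directions, at -0.99 with the interaction (adjusted p = 0.0341) and 0.45 with the replicate block (adjusted p = 0.0379), and was -0.034 in set 1. For S15_YRR against WT the interaction gave -0.84 at C139 and 0.42 at A352. Without a library scale the log2 changes were 0.035 at A352, 0.17 at A359 and 0.064 at C469, and that setting moved the median of all tested nucleotides to 0.26. Limma gave 0.0093 at A352 and 0.0033 at C469 on log2 reactivity, and 0.34, 0.24 and 0.22 percentage points at A352, A359 and C469. A359 was 0.058 in sets 1 and 2 without a set term, and -0.12 to 0.057 when 1 pair was left out. For mature 40S against WT the interaction gave 0.060 at A352 and -0.11 at C455, and limma 0.051 percentage points at C469. For S15_YRR against Rio2_Δloop the interaction gave 0.74 at A22, -0.18 at C139 and -0.092 at A181, and a percentile scale -0.073 at C469. The causes were not tested.

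The mean DMS minus NC rate over members was 0.0954 for S15_YRR, 0.121 for Rio2_Δloop and 0.0971 for mature 40S as a median over members, against -0.03 for WT, whose sign turned. At a depth of 2000 it was 0.198 for S15_YRR, 0.186 for Rio2_Δloop and 0.166 for mature 40S, against 0.0118 for WT. Leaving out 1 pair gave 0.239 to 0.263 for S15_YRR, 0.220 to 0.236 for Rio2_Δloop, 0.186 to 0.243 for mature 40S and -0.04 to 0.150 in WT. Members with little depth, 44 below 2000 reads in some library, limit what could be called.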
